A study of Mus musculus with 6 samples.

Results

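The 10 genes described here handle iron and heme in the cell: Hmox1, Blvrb, Fth1, Ftl1, Ncoa4, Tfrc, Steap3, Slc11a2, Slc11a1 and Slc40a1. They were taken by gene symbol from a table of 55401 mouse genes, where each symbol matched 1 gene, and all 10 were among the 12766 genes tested. RNA came from primary hepatic stellate cells, the liver pericytes that become myofibroblasts in culture, isolated from wild type mice (WT) and from mice heterozygous for S100a16 (S100a16+/-), both on the C57BL/6J background. Cells of both genotypes were grown for 7 days in medium with serum to activate them, and 3 libraries of each genotype were sequenced. Age, sex, how the S100a16 allele was made and how many animals gave each library are not stated in the labels, so the p-values below measure the spread between these libraries, which may be technical.

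Iron enters most cells when transferrin binds its receptor, encoded by Tfrc. In the endosome the reductase Steap3 turns ferric into ferrous iron, and the transporter encoded by Slc11a2 (DMT1) moves it into the cytosol. Iron that is not used is stored in ferritin, a shell of heavy (Fth1) and light (Ftl1) chains that Ncoa4 delivers to the lysosome when iron is needed. Macrophages of the liver also obtain iron from the heme of old red cells. Heme oxygenase (Hmox1) opens heme to biliverdin and releases the iron. The pigment is then reduced by biliverdin reductase, mainly that of Blvra, while Blvrb encodes another enzyme of that name. Slc11a1 (NRAMP1) moves metal out of the phagosome, and ferroportin (Slc40a1) is the exporter of iron from the cell.

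Several of these messenger RNAs carry iron-responsive elements, hairpins with a CAGTGN loop that are bound by iron regulatory proteins when the cell is short of iron. Bound in the 5′ UTR they block translation, and bound in the 3′ UTR of Tfrc they protect the RNA from decay. The elements are shown because they mark members with this layer of control by iron. The RNA values below do not show its translational side. A search of GENCODE M21 protein-coding transcripts (GRCm38) asked for an unpaired C, 5 bases, the loop with any base but G in its last place, and 5 bases that pair with the first 5, G with T allowed. It found 7 elements in the UTRs of 4 of the 10 genes, and at least 1 element in 123 of 21901 protein-coding genes (0.562%). Capitals mark the loop, and each sequence of 29 bases is written 5′ to 3′ on the strand of the gene.
Fth1: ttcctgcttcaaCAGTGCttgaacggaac
Ftl1: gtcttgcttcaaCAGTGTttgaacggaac
Slc40a1: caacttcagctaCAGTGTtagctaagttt
Tfrc element 1: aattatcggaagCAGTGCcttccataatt
Tfrc element 2: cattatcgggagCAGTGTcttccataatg
Tfrc element 3: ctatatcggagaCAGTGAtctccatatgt
Tfrc element 4: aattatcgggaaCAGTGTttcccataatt

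The Fth1 element lies at chr19:9982732-9982760 on the plus strand, the Ftl1 element at chr7:45459779-45459807 on the minus strand and the Slc40a1 element at chr1:45925465-45925493 on the minus strand, all in the 5′ UTR. Tfrc holds its elements on the plus strand in the 3′ UTR, at chr16:32631219-32631247, chr16:32631598-32631626, chr16:32631663-32631691 and chr16:32631710-32631738. The ferritin elements had 26 of 29 bases in common, while each shared 13 bases with the Slc40a1 element. No element of this form was found in a UTR of the other 6 genes, which says only that these letters and pairs are not there. Elements of another form would be missed, so these genes, Slc11a2 among them, are not shown to lack this control. In the promoters, RefSeq windows of GRCm38.p6 from 250 bases before to 50 after a start were matched for 7 of the 10 genes, all but Hmox1, Slc40a1 and Slc11a2. The letters TGANNNNGC, the core of the site that NRF2 and BACH1 bind with small MAF proteins, stood on either strand in 6 of their 15 windows, against 41.3% of all 32851 windows. Sites farther from a start were not searched, so none of the 10 genes is shown to lack them.

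Library totals ran from 61979103 to 76291481 counts. S100a16 itself had an FPKM (a level scaled to gene length and library size) of 18.0, 17.7 and 30.0 in S100a16+/- replicates 1 to 3 and of 56.8 to 58.8 in WT, lower in every S100a16+/- library (edgeR log2 change -1.35, SE 0.21, adjusted p = 0.0313, and -1.63 with adjusted p = 4.04e-05 without S100a16+/- replicate 3). S100a16+/- replicate 3 stood apart: across genes, log2(FPKM + 1) correlated at 0.930 and 0.929 with the other 2 libraries of its group, which correlated at 0.987 with each other, it alone had Xist (FPKM 32.2, at most 0.0323 in the others) and it had little Ddx3y (0.0102, 12.1 to 15.8 in the others), and its summed stellate cell markers were at 14.6% of the WT mean, against 109% and 106% in replicates 1 and 2. The gene and list results below are therefore given with and without it. By the sex-linked genes Xist and Ddx3y it had the pattern of female cells and the others that of male cells, though the labels give no sex. Macrophage transcripts were more abundant than stellate ones: the 14 macrophage and Kupffer cell markers summed to an FPKM of 10405 to 10960 in WT, where the 12 stellate cell and myofibroblast markers summed to 937 to 1057. In these bulk libraries, fewer cells of a type and less RNA per cell cannot be told apart.

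Over all 6 libraries 5 of the 10 genes rose in S100a16+/-, none fell and 5 were not called (edgeR quasi-likelihood, Benjamini-Hochberg over all genes tested). The genes that rose were Hmox1, Ftl1, Ncoa4, Slc11a2 and Tfrc. Of all genes tested 4.46% were called, 2.85% higher and 1.61% lower. DESeq2 on the same genes called 7 of the 10 higher, Fth1 and Slc11a1 besides these 5, and 8.81% of all genes tested higher and 5.98% lower. The median log2 change was 0.62 over the 10 genes and 0.0014 over all genes tested (0.85 and 0.0027 without S100a16+/- replicate 3), and 9 of the 10 lay above 0. FPKM was higher in every S100a16+/- library than in every WT library for 7 of the 10, as for 12.5% of all genes tested (31.4% were separate in either direction). With S100a16+/- replicate 3 left out, 9 of the 10 were called higher and none lower, when 32.3% of 12601 genes were called, 15.8% higher and 16.5% lower. Leaving out S100a16+/- replicate 1 or 2, or WT replicate 1, 2 or 3, left 0 of the 10 called by edgeR. In each of these 5 fits 7 of the 10 had an unadjusted p under 0.05. Of all 12554 to 12615 genes tested in them, edgeR called 25 to 68, and 1835 to 2102 had an unadjusted p under 0.05. No other tool was run on 5 libraries. The calls therefore rest on having all 6 libraries or on leaving out the one that stood apart.

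**Figure D1:**
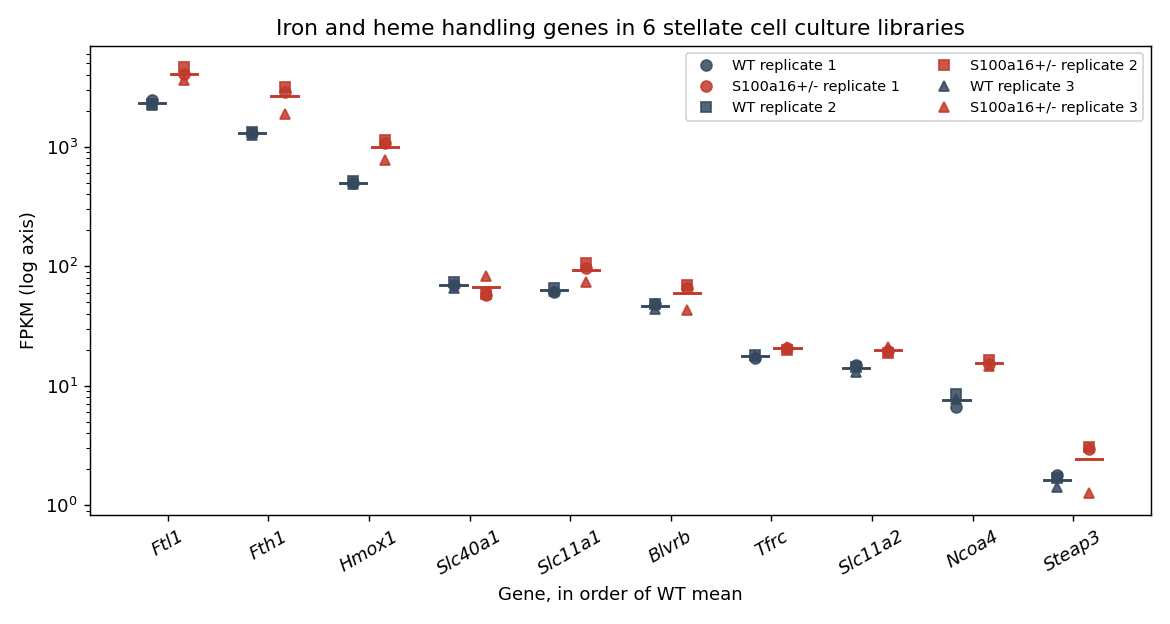
FPKM of the 10 genes on a log axis, in order of their WT mean, with a point for each library and a bar for each group mean. Ftl1 has the highest FPKM (WT mean 2324) and Steap3 the lowest (WT mean 1.63). The points of the 2 groups are separate for all but Slc40a1, Blvrb and Steap3.

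FPKM spanned a wide range. It is scaled to the length taken for each gene, so the order of the genes rests on those lengths. Fth1 had more counts than Ftl1 in every library (329894 and 242356 in WT replicate 1) but the lower FPKM. In WT the order of mean FPKM was Ftl1 (2324), Fth1 (1288), Hmox1 (501), Slc40a1 (69.9), Slc11a1 (62.9), Blvrb (46.8), Tfrc (17.6), Slc11a2 (14.1), Ncoa4 (7.66) and Steap3 (1.63). No neighbours in this order overlapped in the 3 WT libraries, although Slc40a1 at its lowest (66.1) and Slc11a1 at its highest (65.6) were close. In S100a16+/- the range of Slc40a1 overlapped those of Slc11a1 and Blvrb, and the ranges of Tfrc and Slc11a2 overlapped. Fth1 and Ftl1 together took 1.70%, 1.899% and 1.24% of all counts in S100a16+/- replicates 1 to 3 and 0.869%, 0.846% and 0.813% in WT. Group means of this share were 1.62% ± 0.336 and 0.843% ± 0.0278 (SD, n = 3 each), and without S100a16+/- replicate 3 the gap between the groups was wider.

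Among the genes of heme breakdown, Hmox1 (ENSMUSG00000005413, chr8:75093621-75100589, plus strand) had an FPKM of 1081, 1129 and 774 in S100a16+/- replicates 1 to 3 and of 497, 520.0 and 485 in the WT libraries. Every S100a16+/- library was above every WT library, with replicate 3 the lowest of its group. Hmox1, the inducible heme oxygenase, rose (edgeR log2 change 1.04, SE 0.17, adjusted p = 0.0340), and its group means were 995 ± 192 in S100a16+/- and 501 ± 17.6 in WT (FPKM, SD, n = 3 each). Without S100a16+/- replicate 3 the log2 change was 1.21 (edgeR adjusted p = 7.44e-05), and without any 1 of the other 5 libraries the adjusted p lay between 0.119 and 0.178. The call also ended with no filter on low values (edgeR adjusted p = 0.0538).

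Blvrb (ENSMUSG00000040466, chr7:27447978-27466144, plus strand), the biliverdin reductase that also reduces flavins, had an FPKM of 66.3, 69.1 and 43.4 in S100a16+/- replicates 1 to 3. The WT libraries stood at 48.1, 48.4 and 44.0. S100a16+/- replicates 1 and 2 were above all WT libraries and replicate 3 was below them. Over all 6 libraries Blvrb was not called (edgeR log2 change 0.40, SE 0.19, adjusted p = 0.293). Without replicate 3 it was (0.60, edgeR adjusted p = 0.00120). The constitutive heme oxygenase gene Hmox2 and the main biliverdin reductase gene Blvra, the other members of this list, were not called (edgeR log2 changes -0.13 and 0.17, adjusted p = 0.716 and 0.158, and -0.051 and 0.15 with adjusted p = 0.858 and 0.0583 without replicate 3).

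In iron storage, the ferritin heavy chain gene Fth1 (ENSMUSG00000024661, chr19:9980598-9985092, plus strand) had an FPKM of 2861, 3153 and 1858 in S100a16+/- replicates 1 to 3 and of 1299.7, 1313 and 1250.4 in WT. The groups did not overlap, and the S100a16+/- libraries spread far more widely, 2624 ± 679 against 1288 ± 33.1 (SD, n = 3 each). Fth1, whose protein oxidises iron for storage, was not called (edgeR log2 change 1.08, SE 0.22, adjusted p = 0.0588). With S100a16+/- replicate 3 left out, the change was 1.29 and was called (edgeR adjusted p = 0.000115), as it was by DESeq2 over all 6 libraries.

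Ftl1 (ENSMUSG00000050708, chr7:45457944-45459884, minus strand), the light chain that helps the iron core form, had an FPKM of 4059.5, 4608 and 3579 in S100a16+/- replicates 1 to 3 and of 2472, 2284 and 2216 in WT. Every S100a16+/- library was above every WT library. Ftl1 rose (edgeR log2 change 0.87, SE 0.14, adjusted p = 0.0331), and by 0.96 without S100a16+/- replicate 3 (edgeR adjusted p = 0.000640). Its counts are uncertain, because the annotated small RNA gene Gm22133 lies inside it on the same strand with 16.8% to 19.6% as many counts, and 3 copies (Ftl1-ps1, Ftl2-ps and Ftl1-ps2) held together 1.74% to 4.32% as many. Summed over Ftl1, Gm22133 and these copies, the CPM (counts scaled to the same library total) was 7437, 8223 and 6366 in S100a16+/- replicates 1 to 3 and 4375, 4189 and 4033 in WT, so the groups were also separate for the sum.

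Ncoa4 (ENSMUSG00000056234, chr14:32159865-32179855, plus strand), the cargo receptor of ferritin breakdown, had an FPKM of 15.3, 16.5 and 14.7 in S100a16+/- replicates 1 to 3 and of 6.60, 8.62 and 7.77 in WT. The 3 S100a16+/- libraries were close together, replicate 3 included, and all were above WT. Ncoa4 rose with the smallest p of the 10 genes (edgeR log2 change 1.07, SE 0.11, adjusted p = 0.0141), and by 1.12 without S100a16+/- replicate 3 (edgeR adjusted p = 0.00139). The adjusted p was 0.0539 to 0.101 without any 1 of the other 5 libraries. The pseudogene Ncoa4-ps had 1929 to 2549 counts in every library, against 4528 to 11993 for Ncoa4, so the split between them is uncertain. Ncoa4-ps had 19.6% to 22.6% as many counts as Ncoa4 in S100a16+/- and 30.5% to 55.7% in WT. Their sum was 195, 205 and 184 CPM in S100a16+/- replicates 1 to 3 and 107, 117 and 108 in WT. The groups were separate for the sum as well, by a smaller factor than for Ncoa4 alone. Taken as a list, 6 genes of iron storage and ferritin turnover were tested, and 2 rose (Ncoa4 and Ftl1) and none fell, with a median log2 change of 0.44. With S100a16+/- replicate 3 left out, 3 of the 6 were higher (Fth1 as well) and none lower, at a median of 0.54.

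**Figure D2:**
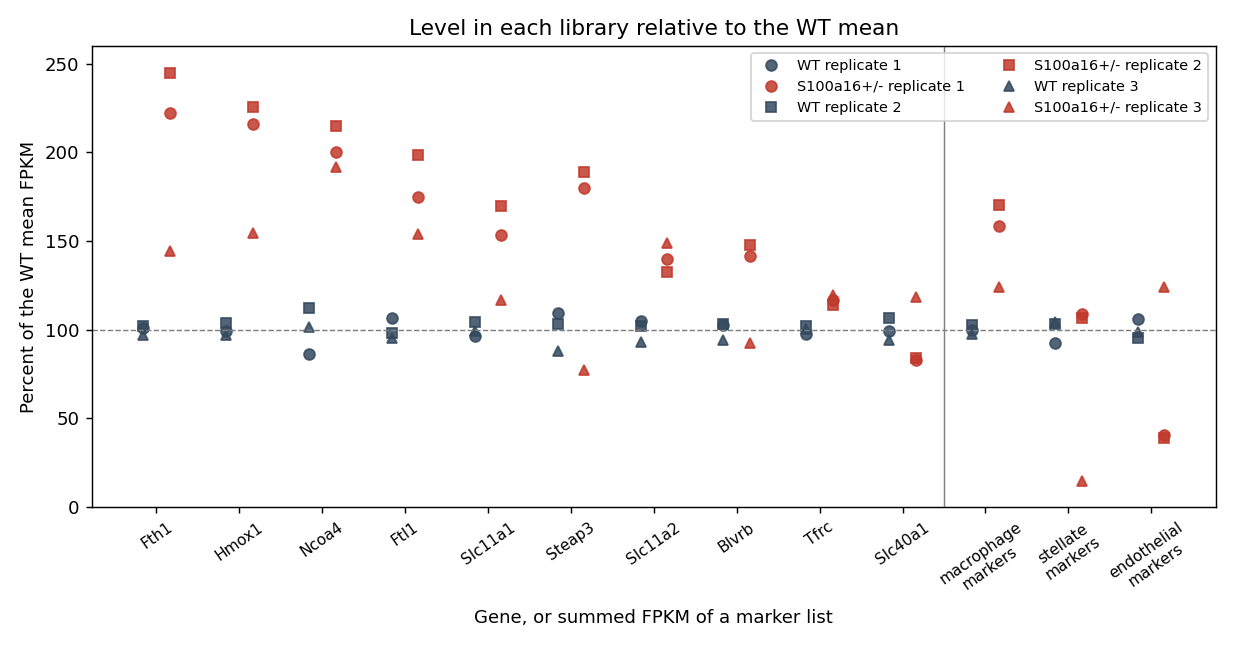
Level of each gene, and of the summed markers of 3 cell types, in each library as a percent of the WT mean, with WT in dark blue and S100a16+/- in red. S100a16+/- replicate 3 (triangle) is the lowest of its group for Fth1, Hmox1, Ftl1, Slc11a1, Steap3 and Blvrb and for the macrophage marker sum (set by Lyz2 and Marco), lies near the other 2 for Ncoa4, and is the highest for Slc11a2, Tfrc and Slc40a1.

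For iron uptake, the transferrin receptor gene Tfrc (ENSMUSG00000022797, chr16:32608920-32632794, plus strand) had an FPKM of 20.5, 20.03 and 21.1 in S100a16+/- replicates 1 to 3 and of 17.2, 17.9 and 17.6 in WT. The groups were separate by a small margin, with means of 20.5 ± 0.516 and 17.6 ± 0.374 (SD, n = 3 each). Tfrc showed the smallest rise of the 5 called genes (edgeR log2 change 0.27, SE 0.05, adjusted p = 0.0449), and it rose by 0.27 also without S100a16+/- replicate 3 (edgeR adjusted p = 0.00427). The call depended on scaling and test: it ended with library totals in place of TMM (0.22, edgeR adjusted p = 0.0853), with no filter on low values (edgeR adjusted p = 0.131) and in limma on log2(FPKM + 1) (0.21, adjusted p = 0.108).

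Slc11a2 (ENSMUSG00000023030, chr15:100387898-100424092, minus strand), the gene of the endosomal iron transporter, had an FPKM of 19.6, 18.6 and 20.9 in S100a16+/- replicates 1 to 3 and of 14.8, 14.3 and 13.1 in WT. All S100a16+/- libraries were above all WT libraries, and replicate 3 was the highest. Slc11a2 rose (edgeR log2 change 0.54, SE 0.07, adjusted p = 0.0241), and by 0.51 without S100a16+/- replicate 3 (edgeR adjusted p = 0.00331). The call ended in limma on log2(FPKM + 0.1), at an adjusted p of 0.05003. Its partner in the endosome, Steap3 (ENSMUSG00000026389, chr1:120190757-120271082, minus strand), was the least abundant member, with an FPKM of 2.94, 3.09 and 1.26 in S100a16+/- replicates 1 to 3 and of 1.78, 1.68 and 1.43 in WT. S100a16+/- replicate 3 was the lowest of all 6 libraries and the other 2 were the highest. Steap3 was not called (edgeR log2 change 0.63, SE 0.35, adjusted p = 0.366) until replicate 3 was left out (0.95, edgeR adjusted p = 0.00291).

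Slc11a1 (ENSMUSG00000026177, chr1:74375195-74386052, plus strand), the metal transporter of phagocytes, had an FPKM of 96.4, 107 and 73.3 in S100a16+/- replicates 1 to 3 and of 60.8, 65.6 and 62.3 in WT. The groups did not overlap, and replicate 3 was the S100a16+/- library closest to WT. Over all 6 libraries it was not called (edgeR log2 change 0.60, SE 0.15, adjusted p = 0.0916). Without replicate 3 it was higher by 0.76 (edgeR adjusted p = 0.000620). In the wider uptake list 2 of 13 tested genes rose, Slc11a2 and Tfrc, and 1 fell, the metalloreductase gene Steap2. Steap2 had an FPKM of 6.25, 5.29 and 5.82 in S100a16+/- replicates 1 to 3 and of 8.49, 8.39 and 8.47 in WT, so that every S100a16+/- library was lower (edgeR log2 change -0.49, SE 0.07, adjusted p = 0.0284, and -0.49 with adjusted p = 0.00585 without replicate 3). Its call ended with no filter on low values (edgeR adjusted p = 0.0561). The median of the uptake list was 0.27 with and without replicate 3, and without it 5 of the 13 were higher and 2 lower.

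The exporter gene Slc40a1 (ENSMUSG00000025993, chr1:45908068-45926523, minus strand) was the only one of the 10 with a log2 change below 0. Its level in S100a16+/- replicates 1 to 3 was an FPKM of 57.8, 59.0 and 82.9, and in WT 69.4, 74.4 and 66.1. S100a16+/- replicates 1 and 2 were below every WT library and replicate 3 above every one. It was not called (edgeR log2 change -0.023, SE 0.15, adjusted p = 0.947). Without replicate 3 the log2 change was -0.20, just short of the threshold (edgeR adjusted p = 0.0527), and it was above 0, uncalled, without S100a16+/- replicate 1 or 2 or WT replicate 2. Of 8 tested genes of iron export and the hepcidin axis, which controls ferroportin, edgeR called 0. An unadjusted edgeR p under 0.05 was reached by 2 of the 8, and by 2807 of all 12766 genes tested. DESeq2 called 1 of the 8 higher and 1 lower. The median log2 change of the 8 was 0.011, and -0.36 without S100a16+/- replicate 3. The 2 with the smallest p were the hemochromatosis gene Hfe at -0.60 and the hepcidin-inducing ligand gene Bmp2 at 0.44 (edgeR adjusted p = 0.0840 and 0.112, and -0.78 and 0.56 with adjusted p = 0.000556 and 0.00165 without replicate 3). Without that library 1 of the 8 was higher and 4 lower. Hamp, which encodes hepcidin and was chosen after its values were seen, had an FPKM of 1.06, 1.77 and 67.9 in S100a16+/- replicates 1 to 3 and of 3.73 to 5.57 in WT (edgeR log2 change 2.32, SE 1.53, adjusted p = 0.445, and -1.68 with adjusted p = 0.0140 without replicate 3). The summed FPKM of 10 hepatocyte markers was 10.4, 10.2 and 549 in those replicates and 74.7 to 113 in WT, also highest in replicate 3 and below WT in the other 2, and its part in the Hamp level was not tested.

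**Figure D3:**
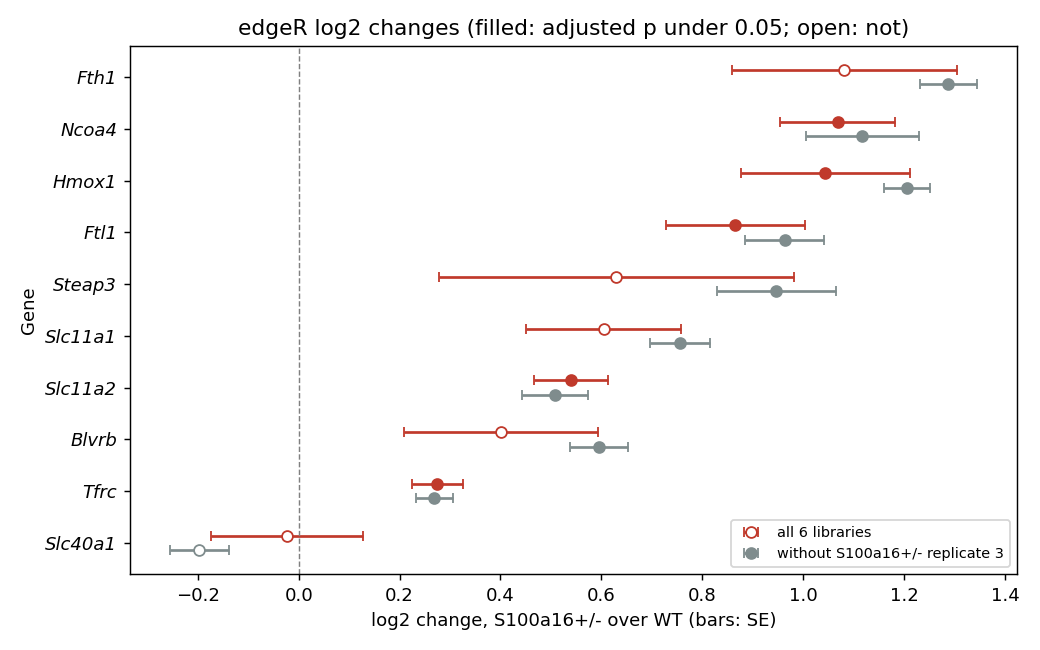
Log2 change of each gene in S100a16+/- over WT with its SE, over all 6 libraries (red) and without S100a16+/- replicate 3 (grey), filled where the edgeR adjusted p was under 0.05. Fth1, Ncoa4 and Hmox1 lie near 1 in the fit over all 6 libraries, Slc40a1 lies at -0.023, and leaving out replicate 3 shortens the error bars of all 10.

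Ratios within a library do not depend on how libraries are scaled to each other, so 5 ratios were tested by exact permutation (two-sided), where 3 libraries against 3 cannot give a p below 0.1. The ratio of Hmox1 to Hmox2 FPKM was 31.8, 31.3 and 25.5 in S100a16+/- replicates 1 to 3 and 10.6, 17.1 and 13.3 in WT, a difference of 1.13 on the log2 scale (exact permutation p = 0.1, adjusted p = 0.5 over 5 ratios). It was the only one of the 5 whose groups did not overlap. The FPKM ratio of Fth1 to Ftl1 was 0.705, 0.684 and 0.519 against 0.526, 0.575 and 0.564 (exact permutation p = 0.4, adjusted p = 0.5). Slc40a1 to Tfrc, the exporter against the importer, was 2.82, 2.94 and 3.94 against 4.04, 4.15 and 3.75 (exact permutation p = 0.2, adjusted p = 0.5). The ratios of Blvrb to Blvra and of Slc11a1 to Slc11a2 differed by 0.20 and 0.04 on the log2 scale (exact permutation p = 0.4 and 0.8, adjusted p = 0.5 and 0.8). Without S100a16+/- replicate 3 the groups were separate for all 5 ratios, with differences of 1.24, 0.32, -0.46, 0.44 and 0.24 in the order given (exact permutation p = 0.1 each, the smallest possible).

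The wider pathway was covered by 9 lists. Outside the 10 genes, 76 of their 87 genes were tested, and 1 rose and 1 fell, with a median log2 change of 0.08. Without S100a16+/- replicate 3, 23 were higher and 13 lower, at a median of 0.11. In that fit 15.8% of all 12601 genes tested were called higher and 16.5% lower. The counts without this library in every list, above and below, are to be read against these shares. Over all 6 libraries 2807 of the 12766 genes tested had an unadjusted edgeR p under 0.05, beside which such counts in the lists below stand. The gene that rose was Slc25a37 (mitoferrin 1), which brings iron into mitochondria, with an edgeR log2 change of 0.42 (SE 0.07, adjusted p = 0.0329, and 0.44 with adjusted p = 0.00490 without S100a16+/- replicate 3). Its FPKM was 9.83, 9.04 and 9.34 in S100a16+/- replicates 1 to 3 and 7.56, 6.96 and 7.25 in WT, so all S100a16+/- libraries were higher. It was the only call among 19 genes of mitochondrial iron and iron-sulfur clusters, whose median was 0.094. Without replicate 3, 4 of the 19 were higher and none lower, at a median of 0.14. The call of Slc25a37 ended in limma on log2(FPKM + 1) and log2(FPKM + 0.1) (adjusted p = 0.0553 and 0.0610) and with no filter on low values (edgeR adjusted p = 0.0704).

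Among 9 genes of heme and hemoglobin uptake and transport edgeR called 0 (6 at an unadjusted p under 0.05), while DESeq2 called 4 higher and 1 lower. The median log2 change of this list was 0.50 and 8 of the 9 were above 0. Without S100a16+/- replicate 3, 7 were higher and 2 lower, at a median of 0.49. Hpx, named after its values were seen, changed direction with that library. Its edgeR log2 change was 1.68 over all 6 libraries (adjusted p = 0.518) and -1.52 without replicate 3 (adjusted p = 0.00227). Slc48a1, whose product carries heme out of the phagolysosome, had an FPKM of 235, 242 and 156 in S100a16+/- replicates 1 to 3 and of 117, 123 and 114 in WT. All S100a16+/- libraries were higher, but the gene was not called (edgeR log2 change 0.89, SE 0.19, adjusted p = 0.0602, and 1.08 with adjusted p = 9.31e-05 without replicate 3). The heme-binding membrane protein gene Pgrmc1 had an edgeR log2 change of 0.30 (adjusted p = 0.0637, and 0.30 with adjusted p = 0.0134 without replicate 3). The hemoglobin scavenger receptor gene Cd163, chosen after its values were seen, went the other way, with an FPKM of 10.98, 11.9 and 26.3 in S100a16+/- replicates 1 to 3 and of 37.4 to 41.4 in WT (edgeR log2 change -1.22, adjusted p = 0.112, and -1.72 with adjusted p = 8.72e-05 without replicate 3). Its groups did not overlap, and replicate 3 lay between WT and the other 2. Flvcr1, a heme exporter gene also chosen afterwards, was at 2.68, 7.99 and 4.63 against 1.496 to 2.17 (edgeR log2 change 1.54, adjusted p = 0.1005, and 1.62 with adjusted p = 0.0444 without replicate 3).

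Of 12 heme synthesis genes edgeR called 0 (3 at an unadjusted p under 0.05) and DESeq2 called 3 higher, and the median was 0.045. In the fit without S100a16+/- replicate 3, 4 were higher and none lower, at a median of 0.12. Cpox and Tmem14c, which act at the mitochondrial steps, were not called (edgeR log2 changes 0.36 and 0.20, adjusted p = 0.0683 and 0.0863, and 0.39 and 0.20 with adjusted p = 0.0110 and 0.0134 without replicate 3). Alas1, the rate-limiting enzyme of heme synthesis outside red cells, was chosen after its values were seen. Its FPKM was 77.0, 71.9 and 20.6 in S100a16+/- replicates 1 to 3 and 17.3 to 18.9 in WT. The first 2 S100a16+/- libraries were far above WT and replicate 3 only just above (edgeR log2 change 1.71, SE 0.49, adjusted p = 0.118, and 2.11 with adjusted p = 4.04e-05 without replicate 3).

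The 6 iron sensing genes had 0 edgeR calls, with 2 at an unadjusted p under 0.05 and 2 called higher by DESeq2, and a median of 0.028. Without S100a16+/- replicate 3, 3 were higher and 1 lower, at a median of 0.065. The RNA-decay factor gene Zfp36 had a log2 change of 0.64 and Fbxl5, which targets iron regulatory protein for degradation, one of 0.23 (edgeR adjusted p = 0.0715 and 0.106, and 0.78 and 0.24 with adjusted p = 0.000862 and 0.0250 without replicate 3). The 9 transcription factor genes also had 0 edgeR calls, with 4 at an unadjusted p under 0.05 and 2 called higher and 2 lower by DESeq2, and a median of 0.079. Without replicate 3, 3 were higher and 4 lower, and the median turned to -0.039. Bach1, the heme-sensing repressor of Hmox1 and the ferritin genes, had an FPKM of 10.2, 9.51 and 9.06 in S100a16+/- replicates 1 to 3 and of 13.1, 11.9 and 12.1 in WT, without overlap (edgeR log2 change -0.32, adjusted p = 0.0863, and -0.26 with adjusted p = 0.0271 without replicate 3). Its partner gene Mafk was at -0.26 (edgeR adjusted p = 0.0823, and -0.30 with adjusted p = 0.00889 without replicate 3). Nfe2l2, the activator NRF2 that competes with it and a gene chosen after its values were seen, was at 116, 116 and 94.7 against 83.2 to 88.8 (edgeR log2 change 0.39, adjusted p = 0.1099, and 0.50 with adjusted p = 0.000689 without replicate 3).

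**Figure D4:**
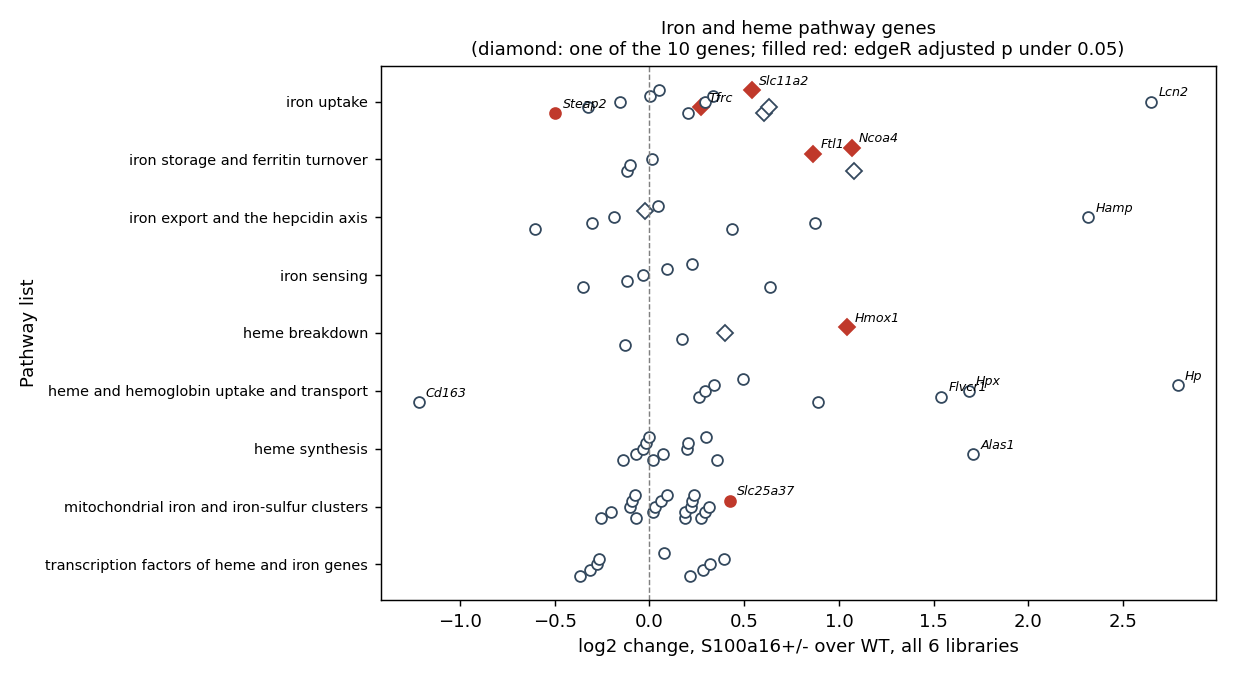
Log2 change over all 6 libraries of every tested gene in the 9 pathway lists, with the 10 genes as diamonds and calls in filled red. Besides 5 of the diamonds only Slc25a37 and Steap2 are filled, and the open points farthest from 0 (Lcn2, Hp, Hamp, Alas1, Hpx, Flvcr1 and Cd163, named after their values were seen) were not called. Without S100a16+/- replicate 3, Hamp and Hpx turned below 0 (-1.68 and -1.52), and Lcn2 and Hp had smaller changes (0.61 and 1.40). Alas1, Flvcr1 and Cd163 then lay farther from 0 (2.11, 1.62 and -1.72).

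The genes whose pattern over the 6 libraries came closest were found by the root mean square difference of log2 CPM, centred on the mean of each gene, among 11017 genes with symbols. For Hmox1 these were the lysosomal protease gene Ctsd (0.0185), and Igsf6 and Cd53 (0.0451 and 0.0483), both genes of leukocyte membrane proteins. Ctsd had an FPKM of 5261, 5490 and 3901 in S100a16+/- replicates 1 to 3 and of 2474, 2558 and 2376 in WT, which parallels Hmox1 in every library. For Slc40a1 they were Adgre4, Foxo4 and Sgsm3 (0.0252, 0.0262 and 0.0354). Adgre4, a macrophage adhesion receptor gene, stood at an FPKM of 15.4, 15.3 and 21.8 in S100a16+/- replicates 1 to 3 and 18.8, 19.4 and 17.0 in WT, again with replicate 3 highest. They are the closest of so many genes over only 6 libraries, and the likeness is given as a description.

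Cell type markers also differed between the libraries. The macrophage and Kupffer cell markers summed to 159%, 170% and 124% of the WT mean in S100a16+/- replicates 1 to 3. Lyz2 and Marco, the most abundant of the 14, made up this excess in replicates 1 and 2: the other 12 summed to 97.2%, 102% and 117% in the same replicates, a sum chosen after seeing the data, with replicate 3 the highest. Of the 14 markers 3 rose and none fell (6 higher and 4 lower without replicate 3), and none was at 0. Replicate 2 was the highest and replicate 3 the lowest of the S100a16+/- libraries for Hmox1 (216%, 225% and 155%), Fth1 (222%, 245% and 144%), Ftl1 (175%, 198% and 154%) and Slc11a1 (153%, 170% and 116%), the order of the 14-marker sum. Ncoa4 (200%, 215% and 192%), Steap3 (180%, 189% and 77.3%) and Blvrb (142%, 148% and 92.6%) had that order too. Slc11a2 (140%, 132.5% and 149%) and Tfrc (117%, 114% and 120%) were highest in replicate 3, as was Slc40a1 (82.7%, 84.3% and 119%). The endothelial markers summed to 40.8%, 39.1% and 124% of the WT mean in the same replicates, with 0 of 9 tested called by edgeR (0 higher and 9 lower without replicate 3). Of the neutrophil markers S100a8 was at an FPKM of 12.4, 15.0 and 6.58 in these replicates and at 0.572 to 2.01 in WT. Csf3r was at 16.1, 16.5 and 21.9 against 16.1 to 17.8, and S100a9 and Ly6g had 0 counts in every library. The part of any of these cell types in the levels was not tested. Of the 8 erythroid markers in the table, 7, the hemoglobin genes among them, had 0 counts in every library, and the eighth, Klf1, reached an FPKM of at most 0.226. For these genes, as for S100a9 and Ly6g, 0 counts do not tell whether a gene was silent or was not counted.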

How the data were processed

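Per the labels' protocols, poly(A) RNA was made into strand-marked libraries carrying molecular identifiers, read from both ends. Tools listed in the submitters' processing notes, without roles, are HISAT2 2.0.4, StringTie 1.3.4d, cutadapt 1.9, edgeR, DESeq2 and UMI-tools. Not given in the sources used here: build, strand setting, and whether identifiers were collapsed. Each gene has a deposited count and FPKM in every library, per the file headers. The counts are whole and unscaled. Gene coordinates are printed as deposited, and sequences come from GENCODE M21 and RefSeq.

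Genes with FPKM of at least 1 in at least 3 libraries were tested on counts by edgeR 4.0.16 (R 4.3.3) with TMM scaling, a quasi-likelihood test of genotype alone and p-values adjusted over all of them (Benjamini-Hochberg). A call is an adjusted p under 0.05. Log2 changes are S100a16+/- over WT, and the SE is the log2 change over the root of F. Alternatives were DESeq2 1.42.0, limma 3.58.1 on log2(FPKM + 1, 0.1 or 5), other scalings and filters, the replicate number as a block, and each library left out. The edgeR step was also run on simulated counts in which no library stood apart, so that run does not bear on the part of S100a16+/- replicate 3. The members and lists were chosen with earlier results of these data known. Named genes are the members, S100a16, from each pathway list the called genes (at most 4, by p) or otherwise the top 2 by p, 2 markers per cell type by level and the 3 genes most like Hmox1, Slc40a1 and Tfrc (those for Tfrc are not reported here). Others are marked as chosen later.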

Additional observations from a re-analysis of the deposited data

How the results depend on the processing

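The count of 570 called genes (364 higher, 206 lower, 63.9% higher) became 1888 with DESeq2, 243 with no filter on low values and 25 to 4066 with 1 library left out, and 282 were higher and 252 lower (52.8% higher) with library totals alone. Of the 10 iron and heme genes, 5 were called with DESeq2 size factors in edgeR and at an FPKM of at least 5 (9 tested), 7 with DESeq2, 4 with library totals or with limma at a pseudocount of 1 or 5, 3 with limma at 0.1, 3 with no filter, and 0 to 9 with 1 library left out. Libraries of the same replicate number did not deviate from their group means together (correlations of the deviations -0.138, 0.0376 and -0.05). With 3 libraries a group, 1 of which stood apart, this cannot show whether they were prepared together. With the replicate number as a block edgeR called 0 genes (2207 at an unadjusted p under 0.05) and 0 of the 10 (7 at an unadjusted p under 0.05). With 1 library left out, the log2 change of Slc40a1 lay between -0.20 and 0.0662, that of Hamp between -1.68 and 2.88 (-0.28 with the replicate block), and the difference in the Slc11a1 to Slc11a2 ratio between -0.11 and 0.24. Direction was kept in all other values of the 10 genes and of the ratios. The cause of these shifts was not tested, beyond the smaller number of libraries. The calls rest on 3 libraries a group, 1 of which stood apart.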
